A study of Mus musculus with 3 samples.

Results

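Homeobox transcription factors were surveyed in mouse neural retina at postnatal day 7 (P7), and the factors known from the eye were set beside the genes of the 4 Hox clusters. The members were the probe sets annotated with a single gene symbol from the Pax, Six2 to Six6, Lhx, Pou, Isl, Meis, Pbx, Prox, Onecut, Dlx, Msx, Irx, Pitx, En, Nkx, Gsx, Gbx and Hox families, plus Rax. They were 113 of 12422 probe sets, from 94 of 8251 genes. Names alone chose them, and no measured value entered the rule. They were split into eye factors by a list of homeobox genes known from the eye, Hox genes, and the rest. The eye factors made up 18 probe sets from 16 genes, the Hox genes 40 probe sets from 32 genes, and the other members 55 probe sets from 46 genes. The name rule also took in 5 probe sets of 3 antisense transcripts (Hoxa11os, Dlx1as and Dlx6os2), which are not homeobox genes. Some Pax proteins of the set, such as Pax1 and Pax9, carry a paired domain and no homeodomain.

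The 3 samples formed 1 group of RNA pools hybridised to Affymetrix MG-U74Av2 arrays, and no other condition was compared. Every pool held retinas of 3 to 4 mice, which were wild-type littermates of Rp1-/- animals on a mixed 129/SvEv and C57BL/6 background. Tissue was taken between 1 and 2 in the afternoon at P7. They are named pool 1, pool 2 and pool 3 here, and the numbers carry no order. Of 10 marker genes chosen for neural retina 9 were measured, and all 9 were above background in every pool, among them Sag (rod arrestin) at 12305, 15211 and 13639. The lens list was the one that differed between pools, with 5 of 9 genes above background in every pool and a summed intensity of 23420, 111971 and 118593. Of the pigment epithelium list 1 of 5 measured genes was above background in every pool, and of the muscle and connective tissue list 2 of 8.

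Homeobox proteins bind DNA through a homeodomain and set the identity of body regions and cell types. In the eye, Rax, Pax6, Six3 and Six6 mark the early eye field and retinal progenitors, and later some of them remain in particular neurons and glia. Hox genes lie in 4 clusters, are numbered by their order within a cluster, and pattern the hindbrain, spinal cord and trunk along the head to tail axis, a territory that does not include the retina. Polycomb proteins keep Hox clusters silent where they are not used.

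Intensities below are the deposited values after scaling each array to a common median. A probe set counted as above background when it passed, in each of the 3 pools, the 90th percentile of 57 genes that belong to other organs, among them liver, lung, testis and skin. That bar was 281, 236 and 232 in pools 1, 2 and 3. Of all 12422 probe sets 41.9% were above it in every pool, and so were 48.7% of the 8251 genes when each was read by 1 chosen probe set. The probe sets differ in how well they capture their transcript, so the level of one gene was not ranked against that of another.

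The eye factors and the Hox genes lay differently against the bar. Of the eye factor probe sets 7 of 18 (38.9%) were above background in every pool, a share close to the 41.9% of all probe sets. Of the Hox probe sets 2 of 40 (5%) were, well below that share. The other members had 6 of 55 (10.9%). Of the 57 genes of other organs that set the bar, 4 (7.02%) passed it in every pool, each read by 1 chosen probe set. The median intensity of the eye factors was 196, 173 and 211 in pools 1, 2 and 3, and that of the Hox probe sets 43.7, 52.7 and 68.6. The median of the other members was 63.9, 86.5 and 56.3, and that of all probe sets 226 in each pool after scaling. The eye factors as a set were therefore no more often above background than the array as a whole, and the contrast came from the low share of the Hox genes. A low share was not particular to the Hox genes, since the other members were low as well. No test of the difference was made, since probe sets on 1 array are not replicates of a condition. In a whole tissue, fewer cells of a type and less RNA per cell cannot be told apart.

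**Figure D1:**
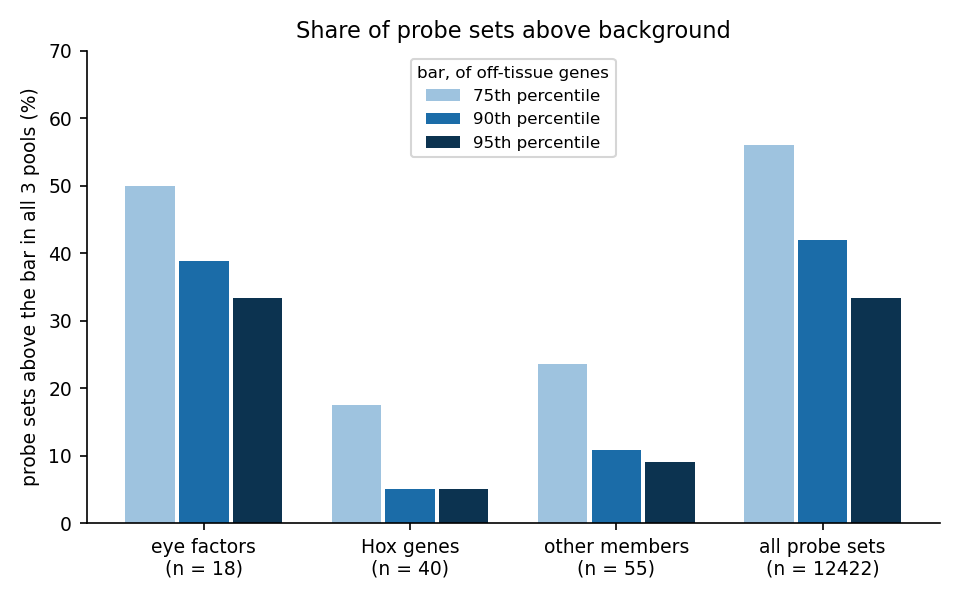
Bars give the percentage of probe sets above background in all 3 pools (vertical axis) for the eye factors, the Hox genes, the other members and all probe sets, with the bar set at 3 percentiles of the unrelated-tissue genes. The eye factors stood at 50%, 38.9% and 33.3% at the 75th, 90th and 95th percentile, the Hox genes at 17.5%, 5% and 5%, and all probe sets at 56.1%, 41.9% and 33.4%.

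The stretch before a start site is shown for 2 eye factor genes and 2 Hox genes, and its part in their control was not tested. Genes of both sets began in DNA rich in CG dinucleotides. Isl1 and Pax6 were above background, Hoxa5 was not, and the Hoxb8 probe sets were split. These were the genes with the highest ratio of observed to expected CG in each set, Isl1 and Pax6 for the eye and Hoxa5 and Hoxb8 for the Hox genes, antisense transcripts left out. For a gene with several start sites, the one with the highest ratio was taken. The other Pax6 start had a ratio of 0.70. Each line gives 250 bases up to the start site from RefSeq (build GRCm38.p6), 5′ to 3′ on the strand of the gene, with every CG in capitals.
Isl1 (chr13:116309689-116309938, minus strand): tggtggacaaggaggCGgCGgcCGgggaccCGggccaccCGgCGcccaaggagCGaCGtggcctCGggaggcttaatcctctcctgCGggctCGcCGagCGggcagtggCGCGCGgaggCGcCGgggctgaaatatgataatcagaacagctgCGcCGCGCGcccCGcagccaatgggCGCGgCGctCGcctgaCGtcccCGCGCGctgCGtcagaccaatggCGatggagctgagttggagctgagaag
Pax6 (chr2:105682213-105682462, plus strand): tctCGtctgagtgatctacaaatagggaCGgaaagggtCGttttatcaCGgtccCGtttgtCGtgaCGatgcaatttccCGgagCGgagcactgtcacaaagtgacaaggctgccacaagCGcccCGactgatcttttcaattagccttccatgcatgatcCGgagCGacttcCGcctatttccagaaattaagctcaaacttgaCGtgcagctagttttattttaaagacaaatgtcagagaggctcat
Hoxa5 (chr6:52204588-52204837, minus strand): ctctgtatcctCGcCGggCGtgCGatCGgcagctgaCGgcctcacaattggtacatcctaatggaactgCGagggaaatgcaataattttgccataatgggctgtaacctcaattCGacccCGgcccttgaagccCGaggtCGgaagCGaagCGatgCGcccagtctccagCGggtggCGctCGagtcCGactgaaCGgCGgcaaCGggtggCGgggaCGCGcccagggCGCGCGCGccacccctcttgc
Hoxb8 (chr11:96281655-96281904, plus strand): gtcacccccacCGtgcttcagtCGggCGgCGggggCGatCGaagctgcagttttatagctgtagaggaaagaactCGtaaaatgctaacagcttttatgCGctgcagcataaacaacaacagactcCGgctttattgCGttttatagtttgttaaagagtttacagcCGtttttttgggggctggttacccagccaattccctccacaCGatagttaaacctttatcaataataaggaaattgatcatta

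The printed stretches held 33 CG in Isl1, 15 in Pax6, 28 in Hoxa5 and 12 in Hoxb8. Pax6 and Hoxb8 had few bases G or C in their full windows of 300 bases (250 before and 50 after the start), 46.3% and 42.3%, and still had observed to expected ratios of 1.00 and 0.97. Of the 94 member genes 68 matched the RefSeq table, with 79 windows. The median ratio was 0.75 over 20 eye factor windows, 0.66 over 23 Hox windows and 0.69 over 36 windows of other members, against 0.38 over all 32851 windows. It passed the median of all windows in 19 of 20 eye factor windows and 18 of 23 Hox windows. Eye factor genes with a probe set above background had a median of 0.75 (9 windows) and those without one 0.77 (11 windows). Only the eye factor genes were split by the bar in this way. Whether the CG content of the start bears on expression was not tested.

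**Figure D2:**
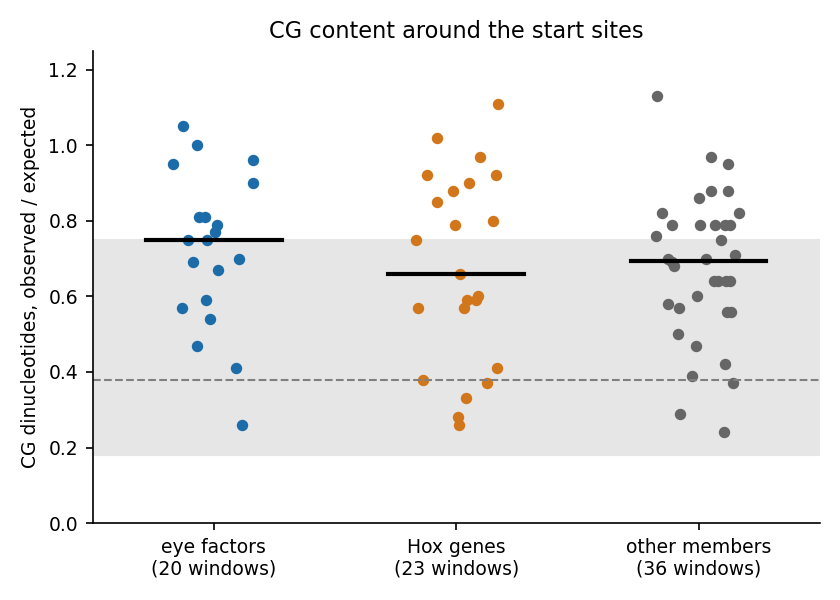
Points are the start windows of member genes, the vertical axis is the ratio of observed to expected CG dinucleotides, thick lines are medians, the dashed line is the median of all windows (0.38) and the grey band runs from their 25th to their 75th percentile (0.18 to 0.75). The windows of eye factors, Hox genes and other members cover the same range, and most lie above the dashed line.

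The windows were searched for a pair of short runs of letters that homeodomain proteins bind. TAATTA, the core that many homeodomains recognise, was searched on both strands and stood in 0 of 20 eye factor windows and 2 of 23 Hox windows, both of Hoxd11, against 5.29% of all windows. TAATCC, the core preferred by Otx2 and Crx, was in 1 of 20 eye factor windows, that of Isl1, and in 0 of 23 Hox windows, against 7.06% of all. A match is only a run of letters, and its absence here concerns this window alone.

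Among progenitor and eye field genes, 4 of 7 probe sets (57.1%) were above background in every pool, against 41.9% of all probe sets. Pax6, the paired and homeodomain factor needed for eye formation and kept in amacrine and ganglion cells, was at 2628, 2031 and 2187, or 8.61 to 9.42 times the bar. Rax, the retinal homeobox gene of the eye field, was at 1784, 2607 and 1491. Six3, a sine oculis factor of the forebrain and eye, was at 1230, 1354 and 1873 by one probe set. All 3 genes lay far above the bar in every pool, and the highest pool differed for each of them, being pool 1, pool 2 and pool 3.

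The remaining probe sets of this class were near or below the bar. Meis1, a cofactor of Hox and Pax proteins that is also present in retinal progenitors, was at 392, 258 and 311, the lowest of the called members at 1.09 times the bar in pool 2. Meis2, its close relative, was at 352, 236 and 270 and lay just under the bar in pool 2 (0.999 times). Both genes were highest in pool 1 and lowest in pool 2. Six6, a close relative of Six3, was at 21.0, 33.2 and 56.7, far below the bar. A second Six3 probe set was at 9.24, 8.50 and 12.9, so that the Six3 probe sets lay on opposite sides of the bar in every pool. Six6 was read by a single probe set, and its low values do not show that the gene was silent.

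Of the factors of photoreceptors, bipolar, horizontal and amacrine cells, 3 of 7 probe sets (42.9%) were above background in every pool. That is close to the 41.9% of all probe sets. Isl1, a LIM-homeodomain factor of ganglion, ON bipolar and cholinergic amacrine cells, was at 1038, 1223 and 791. Prox1, a factor of horizontal and AII amacrine cells that is also strong in lens fibres, was at 366, 612 and 559. Lhx3, a LIM-homeodomain factor best known from pituitary and motor neurons and found in some bipolar cells, was at 367, 618 and 381. All 3 were highest in pool 2, and none was more than 1.69 times its lowest pool. Prox1 was lowest in pool 1, as was the summed intensity of the lens list (23420, against 111971 and 118593), and Six3 and Lhx3 were lowest there too. The part of lens RNA in these values was not tested.

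Lhx1, the LIM-homeodomain factor of horizontal cells, was at 142, 235 and 384, above the bar in pool 3 only. Onecut1, a factor of early horizontal and ganglion cells, was at 156, 80.9 and 153 and below the bar in every pool. The Lhx9 probe sets (19.4, 12.1 and 15.3, and 14.1, 37.3 and 24.8) lay in every pool below 42.2, the floor under which values have no order. Of the ganglion class Dlx1 was below that floor too (8.37, 6.54 and 9.02), and its neighbour Dlx2 was at 26.5, 103 and 57.3. Pax2, the optic stalk factor, was at 74.6, 112 and 137. Pitx3, a factor of the lens and of midbrain dopamine neurons, was at 236, 51.3 and 48.1, below the bar in every pool and highest in the pool with the lowest lens signal. No gene of the ganglion class or of the optic stalk, lens and anterior eye class was above background in every pool (0 of 2 probe sets each). The share of all probe sets was 41.9%. The ganglion class was read by Dlx1 and Dlx2 alone. Isl1 and Pax6, also known from ganglion cells, were listed in other classes, so the count does not describe ganglion cell factors as a whole.

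**Figure D3:**
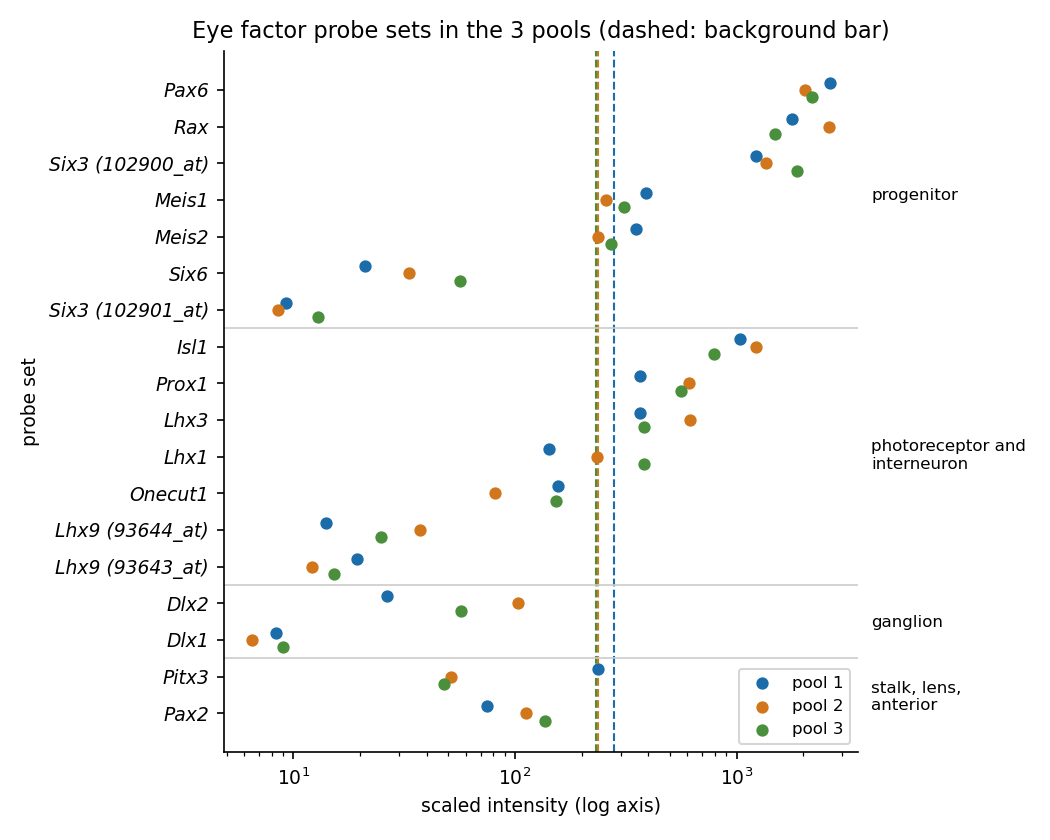
Each row is an eye factor probe set, points are the scaled intensities in pools 1, 2 and 3 on a log axis, and dashed lines are the background bars of the pools (281, 236 and 232). Pax6, Rax, Isl1 and the upper Six3 probe set lie far to the right of the bars in every pool, whereas the lower Six3 probe set and Six6 lie far to the left.

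Of the 31 eye factors listed, 16 were read by a member probe set. The others, among them Otx2, Lhx2 and the Pou4f genes, were not analysed here, so the counts describe a subset of the homeobox genes of the retina.

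No Hox probe set without a letter suffix was above background in every pool (0 of 29), against 44.9% of all probe sets without a suffix. The suffixes mark probe sets that could not be made unique or that were designed under relaxed rules. With these and without the 2 probe sets of Hoxa11os, 2 of 38 were above the bar, one of Hoxa4 and one of Hoxb8. In the plot along the clusters their lowest values are 2.52 and 2.15 times the bar, and the next Hox probe set, that of Hoxb6, is at 0.9 times.

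The other member probe sets of both genes lay below the bar in every pool. For Hoxa4, a gene of the rostral spinal cord and hindbrain, a probe set with the suffix r was at 709, 979 and 1175. The unsuffixed Hoxa4 probe set was at 30.6, 26.8 and 158. The remaining Hoxa4 probe sets had 59.0, 115 and 129 in one case and 3.94, 41.5 and 29.3 in the other, so that 3 of 4 lay below the bar in every pool. For Hoxb8, a gene of the thoracic cord that also acts in blood cells, a probe set with the suffix r was at 605, 564 and 979, whereas its second probe set was at 31.7, 74.3 and 17.8. The suffix r marks relaxed design rules. Of the 901 probe sets of this type on the array 22.3% were above background in every pool, against 41.9% of all probe sets. Of the 6 member probe sets of this type 2 were, those of Hoxa4 and Hoxb8. A Hoxa6 probe set of this type was at 54.3, 116 and 231, just under the bar in pool 3. Whether the relaxed design bears on the bright values was not tested. A probe set annotated to both Hoxb8 and Hoxb7, and so no member, was at 376, 295 and 312, above the bar in every pool like the bright Hoxb8 probe set. The single Hoxb7 probe set was at 158, 208 and 202, below the bar in every pool. Of the 3 probe sets annotated to a pair of Hox genes, the rest were shared by Hoxd4 and Hoxd3. These were at 22.0, 31.7 and 56.5 and at 83.2, 89.6 and 86.6, below the bar in every pool.

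A further 4 Hox probe sets passed the bar in some pools only. Hoxb6 was at 364, 212 and 246, above it in pools 1 and 3. Hoxb5 was at 88.3, 248 and 193 and Hoxc8 at 142, 256 and 153, each above it in pool 2 alone. Hoxb13, the most caudal gene of its cluster, was at 147, 85.8 and 236, above it in pool 3 alone. All 4 were at most 1.3 times the bar in any pool, and no pool was the high one for all of them.

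The rest of the clusters lay low. The genes Hoxa3, Hoxa7, Hoxa10, Hoxa13, Hoxb4, Hoxb9, Hoxd1, Hoxd11, Hoxd12 and Hoxd13 were under the floor of 42.2 in every pool by all their probe sets. With the lower Hoxa6 and Hoxa4 probe sets, 13 of 38 Hox probe sets (34.2%) were, against 11.1% of all probe sets and 22.2% of the eye factors. Between floor and bar, Hoxa2, the gene of the second branchial arch and rostral hindbrain, was at 156, 156 and 180, and a Hoxd8 probe set was at 196, 186 and 136. Hoxb1, the marker of a single hindbrain segment, was at 104, 102 and 188, Hoxb3 at 114, 91.6 and 109 and Hoxa5 at 103, 64.3 and 52.1. Hoxc4, Hoxc5, Hoxc6, Hoxc9, Hoxa9, Hoxa11, Hoxd9 and Hoxd10 were likewise below the bar in every pool.

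Position along the clusters was compared by counts, beside the 41.9% of all probe sets above background in every pool. None of 6 probe sets of paralogue groups 1 to 3 was above background in every pool, 2 of 20 of groups 4 to 8 were, and 0 of 12 of groups 9 to 13 were. Of the 6 Hox probe sets that passed the bar in at least 1 pool, 5 belonged to groups 4 to 8, and the other was Hoxb13. Groups 4 to 8 also held 20 of the 38 Hox probe sets. The 2 above background in every pool carry the suffix r, and the other member probe sets of their genes lay below the bar. Of the 38 Hox probe sets 32 passed in no pool, and of all 12422 probe sets 5733. These counts are too few to show a pattern by position. By cluster, 1 of 14 Hoxa, 1 of 10 Hoxb, 0 of 5 Hoxc and 0 of 9 Hoxd probe sets were above it in every pool. The median of the Hoxb probe sets was 109, 96.9 and 191, and that of the Hoxd probe sets 28.8, 33.8 and 37.2, both below the bar in every pool.

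**Figure D4:**
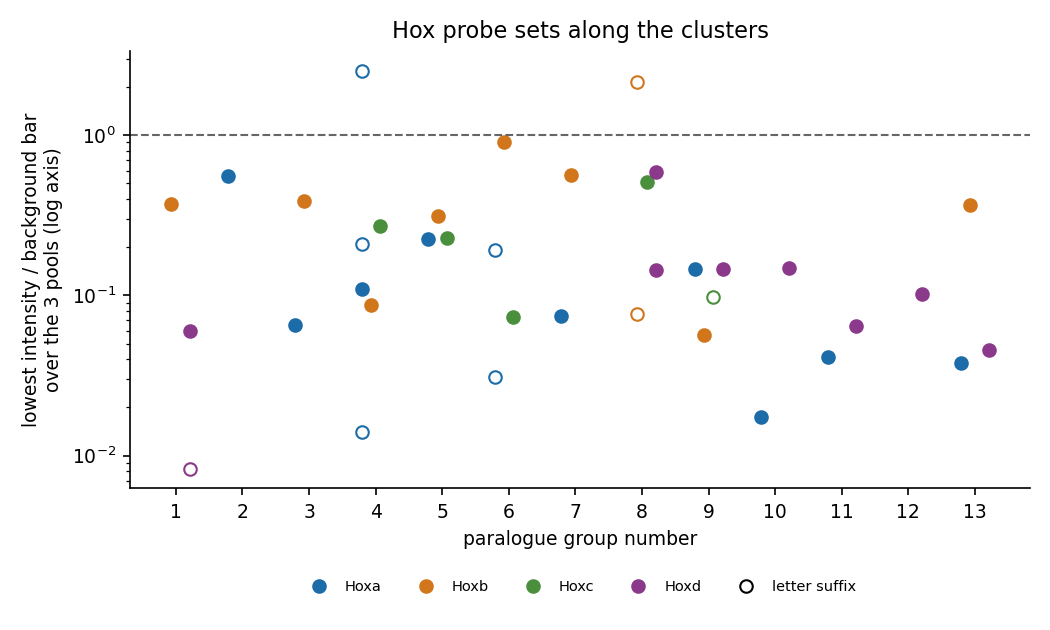
Each point is a Hox probe set at its paralogue group number (horizontal axis), and the vertical axis (log) is its lowest intensity over the 3 pools divided by the bar of that pool. Open circles mark probe sets with a letter suffix, and the only points above the dashed line at 1 are open circles of Hoxa4 and Hoxb8.

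The antisense transcripts were low. Hoxa11os had intensities of 46.9, 193 and 34.1 by one probe set and of 18.1, 14.6 and 22.5 by the other. The Dlx1as and Dlx6os2 probe sets were below the bar in every pool as well (0 of 5 above it).

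Of the other members, 4 genes were above background in every pool by their chosen probe set. Pbx3, a TALE homeodomain protein that binds DNA together with Hox and Meis proteins, was above background by all its 3 probe sets, the chosen one at 1256, 1386 and 1087. Pbx2, its relative, was at 270, 296 and 226, above the bar in pool 2 only. Meis3, the third Meis gene, was at 525, 733 and 366. Pou6f1, a POU factor of the nervous system, was at 666, 744 and 513 by one probe set, while its others were at 203, 94.5 and 152 and at 135, 175 and 170. Pax4, known from endocrine pancreas, was at 396, 314 and 391. These 6 probe sets of 4 genes were all of the 55 that passed in every pool.

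Some families were also counted on their own, beside the 41.9% of all probe sets above background in every pool. None of 8 Nkx, 6 Dlx, 2 En, 3 Msx and 2 Pitx probe sets was. The Dlx and Pitx counts take in genes of the eye list, and antisense transcripts were left out. The En, Msx and Pitx counts rest on few probe sets. Of the Msx genes, which are targets of BMP signalling, Msx1 was at 162, 236 and 279 and Msx3 at 174, 325 and 402, both above the bar in pools 2 and 3 (Msx1 barely so in pool 2) and lowest in pool 1. Msx2 was at 5.29, 13.2 and 11.7, under the floor in every pool. Of 9 Pax probe sets, only those of Pax6 and Pax4 passed in every pool. Irx3, a TALE homeodomain factor, was at 160, 138 and 178, below the bar in every pool.

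Homeobox genes outside the name rule were read by list, and the lists were chosen with earlier results of these data known. Of the eye and nervous system list 6 of 9 measured genes were above background in every pool, with Crx, the photoreceptor factor related to Otx2, at 5536, 8066 and 7203, Vax2, the ventral retina factor, at 500, 692 and 705, Hmx1 at 475, 547 and 552 and Cux1 at 1366, 1459 and 1418. Of a list made up largely of trunk, limb and gut homeobox genes, such as Cdx2, Evx1 and Pdx1, 0 of 19 measured were. It also held genes known from the head, such as Hesx1, Gsc, Alx4 and Lmx1b, so it is not a pure trunk list. The values of that list had medians of 35.4, 32.8 and 31.6, under the floor in every pool. These lists were read by 1 chosen probe set a gene, for which the share over all genes was 48.7%.

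Partners of the homeobox proteins were above background in part, and Hox regulators nearly throughout. Of the cofactor list 7 of 13 measured genes (53.8%) were above background in every pool, near the 48.7% of all genes. Among these cofactors were the TALE genes Tgif1 at 315, 261 and 474 and Pknox1 at 433, 958 and 588. The LIM-binding genes Ldb1, at 1015, 1118 and 956, and Ldb2, at 425, 719 and 755, were too. The Eya genes, which encode the partners of Six3 and its relatives, were not: Eya3 was at 57.4, 381 and 430, and Eya1, Eya2 and Eya4 were below the bar in every pool. Of the list of Hox regulators 10 of 11 measured genes (90.9%) were above background in every pool, against 48.7% of all genes. Among them were the Polycomb genes Ezh2, the histone H3 methyltransferase, at 1069, 922 and 1024, Ezh1 at 476, 436 and 338, Eed at 628, 656 and 454 and Suz12 at 770, 649 and 898. The count also takes in Kmt2a, which is on the list but is not a Polycomb gene, at 1349, 1312 and 1181. Ring1, at 364, 261 and 146, was the exception, being below the bar in pool 3.

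The spread between the pools could be tested for the brighter homeobox genes only. Excess spread was tested with limma on the 6211 brighter probe sets, 83 of which (1.34%) varied between the pools more than others of their brightness at an adjusted p below 0.05. Of the 113 members 23 were bright enough, 9 of them eye factors and 3 of them Hox probe sets. None of the 23 was called by limma, and 2 had an unadjusted p below 0.05. The widest was Six2, a factor of kidney progenitors and head mesenchyme, at 472, 308 and 132, a 3.58-fold range with a limma adjusted p of 0.157. Lhx1 had a 2.71-fold range with a limma adjusted p of 0.727. The 7 eye factors above background had ranges from 1.29-fold (Pax6) to 1.75-fold (Rax). Their highest value fell in pool 1 for 2 of them, in pool 2 for 4 and in pool 3 for 1. The median SD on the log2 scale was 0.37 for the 23 tested members, 0.32 for the 9 eye factors among them and 0.26 for all tested probe sets. A range above 2-fold was found for 5 of the 23 members (Six2, Lhx1, Msx3, Pou2f3 and Meis3) and for 536 of the 6211 probe sets. With 3 arrays, the lack of calls does not show that the pools were alike. The members below the brightness limit, most Hox genes among them, were not tested.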

How the data were processed

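Total RNA from 3 pools of P7 neural retina was measured on 1-colour MG-U74Av2 arrays, a type read from the sample titles. The intensity values deposited by the authors are 1 linear number per probe set; the software, background correction and detection method behind them were, for this series, not given in the sources used here. Probe sets were named through GEO's annotation of the platform, updated by gene ID through RefSeq (GRCm38.p6, names only). Of 12422 non-control probe sets (66 controls left out) 10833 had 1 gene, 396 several and 1193 none, and those with several were not named.

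Arrays were scaled to a common median by factors of 0.962, 1.09 and 0.959, which shifted the arrays by -0.06, 0.12 and -0.06 on the log2 scale. As background bar served, in each array, the 90th percentile of 57 genes measured out of 65 listed from other organs, of which Ctrb1, Krt1, Krt10 and Lhb passed it in all pools. For spread, values were floored at the 20th percentile (42.2) and put on the log2 scale. The variance of each probe set in the brighter 50% (2 residual degrees of freedom) was compared with the prior variance of limma 3.58.1 (squeezeVar, robust, trend on the mean, in R 4.3.3) with an upper-tail F test and Benjamini-Hochberg adjustment. The script was tested on simulated data. Where 1 probe set stood for a gene, it was one without a letter suffix, then the one with the highest mean.

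Named were all eye factors and Hox genes and the other members above background. From the lists of outside homeobox genes, cofactors and Hox regulators the first 4 genes above background were named, where there were any. The same choice had been set for the tissue marker lists, but of these only Sag was named. Genes named beyond this, such as Six2, the Msx genes, Irx3, Pou2f3, Pbx2, the Eya genes, Ring1 and Kmt2a, were chosen after their values were seen. The members, lists and tests were chosen with earlier results of these data known. Comparison of homeodomain protein sequences had been intended and was not done here. Nothing says the pools are more than separate RNA samples, so p-values reflect only how these 3 samples differ, which may be technical. The number of arrays limits the precision.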

Additional observations from a re-analysis of the deposited data

How the results depend on the processing

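The number of eye factor probe sets above background stayed between 6 and 9 under all alternatives, which were planned, and was 7 to 8 when each pool was left out. The Hox number, 2 of 40, was 7 with the 75th percentile as the bar, 1 with 1 chosen probe set per gene and 0 with unsuffixed probe sets alone, for which fewer probe sets were counted (32 and 29). It was 2 to 3 with 1 pool left out in turn. The number of other members, 6 of 55, was 13 with the 75th percentile and 10 with the mean over the arrays against the mean bar, and 6 to 9 with 1 pool left out in turn. No scaling and quantile normalisation left all 3 numbers as they were, since the bar moves with its array. Of 12 genes above background by their chosen probe set among 52 named, the 95th percentile lost Meis1 and Pax4. The 75th percentile added Hoxa2, Hoxb6, Hoxb7, Hoxc8, Hoxd8, Lhx1 and Meis2, and leaving out pool 2 added Hoxb6 and Meis2. No member was called for excess spread by limma under any setting, with the lowest adjusted p between 0.157 and 0.991 and 0 to 2 members at an unadjusted p below 0.05. Over all probe sets the 83 calls became 6 on unscaled values, 6 on quantile-normalised ones, 27 in the brightest 25%, 38 with the prior not robust, 0 with dim probe sets included (141 at an unadjusted p below 0.05) and 9 to 30 with 1 pool left out in turn, and the cause was not tested. A value below the bar is no measured level, and it limits every statement on the Hox genes to the sensitivity of these probe sets.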
